A study of Mus musculus with 441 samples.

Results

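Germ cells switch on a set of genes that most other tissues keep silent. The 7 genes described here, Dazl, Hormad1, Aurkc, Sycp3, Mael, Ddx4 and Taf7l, belong to that set and were chosen by name. Earlier results of these data were known at that choice, so the counts of calls below may not be independent of it. All 7 had a row among the 21001 genes of the bulk RNA table, the 22392 genes of the single mouse embryonic stem cell (mESC) table and the 23142 windows of the ChIP table, and 4 had a row among the 18848 genes of the neural precursor table. The cells were of the v6.5 mESC line in 2i+LIF (2i is a pair of inhibitors of the kinases MEK and GSK3), Dgcr8-/- mESCs made in the v6.5 background and grown in serum+LIF, and v6.5 mESCs in serum+LIF. LIF was in the medium of all 3 mESC cultures. Single cells numbered 94 in 2i, 84 in the knockout, and 183 in serum on a pair of plates of 90 and 93. Neural precursor cells, derived in culture from v6.5 cells and nestin-positive, numbered 54. Bulk RNA came from 1 2i, 2 knockout and 2 serum libraries, and ChIP from 1 library per culture for each of 6 targets and the input. The labels name a single line per genotype and no separate cultures or animals, so the p-values below cover the spread among these libraries only, and that spread may be technical.

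In the embryo, CpG-rich promoters of many germline genes gain DNA methylation around implantation and stay silent in somatic tissue. The de novo methyltransferases Dnmt3a and Dnmt3b with their partner Dnmt3l lay the mark down, Dnmt1 with Uhrf1 maintains it, and a Polycomb complex (PRC1.6) that contains E2f6, Mga and Max also holds such genes down in mESCs. Cultured mESCs in 2i are known to carry much less DNA methylation than in serum. Dazl and Ddx4 (also called Vasa) act on RNA in germ cells, Mael protects the germline from transposons, Hormad1 and Sycp3 belong to the chromosome axis of meiosis, Aurkc is an Aurora kinase of meiotic divisions, and Taf7l is a germ cell partner of the general transcription factor TFIID. DNA methylation itself was not measured in these samples.

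The promoters of 4 members are shown because these genes have the largest RNA differences below. The ChIP windows lay at gene starts in general, judged from distances between neighbouring genes. Whether the window and promoter of each member cover the start in use was not tested. The sequences are RefSeq's, build GRCm38.p6, 250 bases before to 50 bases after the annotated start, 5′ to 3′ on the gene's strand. Capitals mark the E-box CACGTG, the core site bound by Mga with Max, and TCCCGC or its reverse complement GCGGGA, a core of sites bound by E2F factors.
Dazl promoter, chr17:50293571-50293870 (minus strand): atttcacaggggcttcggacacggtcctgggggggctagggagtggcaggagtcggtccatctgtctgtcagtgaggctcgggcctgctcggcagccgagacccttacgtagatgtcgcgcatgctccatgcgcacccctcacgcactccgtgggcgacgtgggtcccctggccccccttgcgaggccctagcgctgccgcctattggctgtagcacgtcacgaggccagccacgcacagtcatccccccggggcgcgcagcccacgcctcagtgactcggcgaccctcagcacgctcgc
Hormad1 promoter, chr3:95559427-95559726 (plus strand): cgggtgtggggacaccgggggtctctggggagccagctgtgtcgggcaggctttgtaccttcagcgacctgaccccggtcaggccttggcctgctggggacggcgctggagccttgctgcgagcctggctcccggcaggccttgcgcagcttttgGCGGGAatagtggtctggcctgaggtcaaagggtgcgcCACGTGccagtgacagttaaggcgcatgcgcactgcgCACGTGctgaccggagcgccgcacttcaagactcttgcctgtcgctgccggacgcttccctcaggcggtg
Sycp3 promoter, chr10:88459337-88459636 (plus strand): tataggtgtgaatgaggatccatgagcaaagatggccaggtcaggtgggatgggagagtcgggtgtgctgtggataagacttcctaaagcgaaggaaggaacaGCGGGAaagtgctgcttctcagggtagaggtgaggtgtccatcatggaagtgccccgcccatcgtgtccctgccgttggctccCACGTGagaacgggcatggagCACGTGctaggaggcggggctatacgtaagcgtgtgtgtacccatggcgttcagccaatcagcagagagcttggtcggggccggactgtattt
Aurkc promoter, chr7:6995135-6995434 (plus strand): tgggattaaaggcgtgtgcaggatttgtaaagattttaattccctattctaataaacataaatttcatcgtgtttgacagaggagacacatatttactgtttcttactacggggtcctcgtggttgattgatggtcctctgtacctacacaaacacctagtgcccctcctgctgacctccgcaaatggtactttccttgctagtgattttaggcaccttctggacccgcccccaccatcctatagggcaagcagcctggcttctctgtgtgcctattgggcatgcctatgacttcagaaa
Hormad1 has 2 entries in the table and the first was used. The Hormad1 and Sycp3 promoters each held 2 E-boxes and 1 E2F core, while those of Dazl and Aurkc held neither. The promoters of Ddx4 (1 E-box and 1 E2F core) and Mael (1 E-box and 2 E2F cores) held both, and that of Taf7l held 1 E-box only. An E-box thus stood in 5 of 7 member promoters, beside 7.24% of the 27025 promoters of this length, and both motifs stood in 4 of 7, beside 2.05%. These are matches of letters on either strand, and binding of these factors was not measured. Aurkc also differed in base composition, with 6 CpG in 300 bases, near the median of 7 over all promoters, while the other 6 held between 15 and 38. The CpG count was 38 for Ddx4, 28 for Dazl, 24 for Hormad1 and Mael, 17 for Taf7l and 15 for Sycp3.

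In bulk RNA the members did not move as a block. Aurkc and Hormad1 were higher in both 2i and the knockout than in serum, Dazl was highest in 2i, Sycp3 and Mael were higher in the knockout than in both other cultures, and Ddx4 was lower in 2i. Expression is given as TPM, each transcript's length-corrected share of a library scaled to a fixed total, and differences on the log2(TPM + 1) scale, which understates changes of low genes. They were tested with limma over 10081 genes with a mean of at least 1 TPM, with an adjusted p under 0.05 (Benjamini-Hochberg) as a call. Taf7l fell under that level and was not tested, leaving 6 members. Of all genes tested, 20.4% were called higher and 11.8% lower in 2i than in serum, and 62.5% higher and 11.7% lower in the knockout than in serum. The median gene itself was higher by 0.20 in 2i and by 0.92 in the knockout. With each library centred on its median gene, the shares became 13.8% higher and 18.7% lower in 2i, and 21.8% higher and 36.5% lower in the knockout.

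Aurkc had 39.9 TPM in 2i and 40.8 and 30.6 TPM in the knockout libraries, against 0.101 and 0 TPM in serum. The groups were far apart, and the gene was at the edge of detection in serum. Its difference was 5.28 (SE 0.30, adjusted p = 1.42e-07) in 2i and 5.11 (SE 0.25, adjusted p = 1.01e-08) in the knockout, or 5.09 and 4.20 relative to the median gene, by limma. Hormad1 had 7.18 TPM in 2i and 14.2 and 12.9 TPM in the knockout, against 1.70 and 0.615 TPM in serum. Every 2i and knockout library stood above both serum libraries. The difference was 1.97 (SE 0.36, adjusted p = 0.00122) in 2i and 2.80 (SE 0.29, adjusted p = 4.13e-06) in the knockout, and 1.77 and 1.88 relative to the median gene.

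Dazl had 19.9 TPM in 2i and 5.07 and 3.19 TPM in the knockout, against 0.933 and 0.438 TPM in serum. The 3 groups did not overlap, with 2i highest. In 2i the difference from serum was 3.65 (SE 0.35, adjusted p = 9.41e-06), and 3.45 relative to the median gene. In the knockout it was 1.60 (SE 0.29, adjusted p = 0.000304), of which 0.68 stood above the median gene, and with libraries centred on the median gene the knockout call was lost (adjusted p = 0.119 by limma).

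Sycp3 had 0.761 TPM in 2i and 6.72 and 7.57 TPM in the knockout, against 0.893 and 0.562 TPM in serum. Mael had 0.530 TPM in 2i and 5.89 and 4.60 TPM in the knockout, against 0.510 and 0.579 TPM in serum. For both genes the 2i value lay within the serum range, and both knockout libraries lay above every other library. In the knockout Sycp3 rose by 2.24 (SE 0.26, adjusted p = 8.84e-06) and Mael by 2.01 (SE 0.25, adjusted p = 1.73e-05), or 1.32 and 1.09 relative to the median gene. In 2i their differences from serum were 0.03 (SE 0.31, adjusted p = 0.943) for Sycp3 and -0.01 (SE 0.31, adjusted p = 0.977) for Mael.

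Ddx4 ran the other way in 2i, with 0.212 TPM there and 3.91 and 3.32 TPM in the knockout, against 2.21 and 2.27 TPM in serum. The 2i library was the lowest of the 5. Ddx4 fell by 1.42 in 2i (log2 difference -1.42, SE 0.31, adjusted p = 0.0038 by limma). In the knockout its difference was 0.51 (SE 0.25, adjusted p = 0.0827), and its direction depended on the scaling: centred on the median gene it was -0.61 (adjusted p = 0.0418). Taf7l was listed at 0 TPM in 2i, at 0 and 0.321 TPM in the knockout, and at 0.0573 and 0 TPM in serum, so that no difference could be read.

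**Figure D1:**
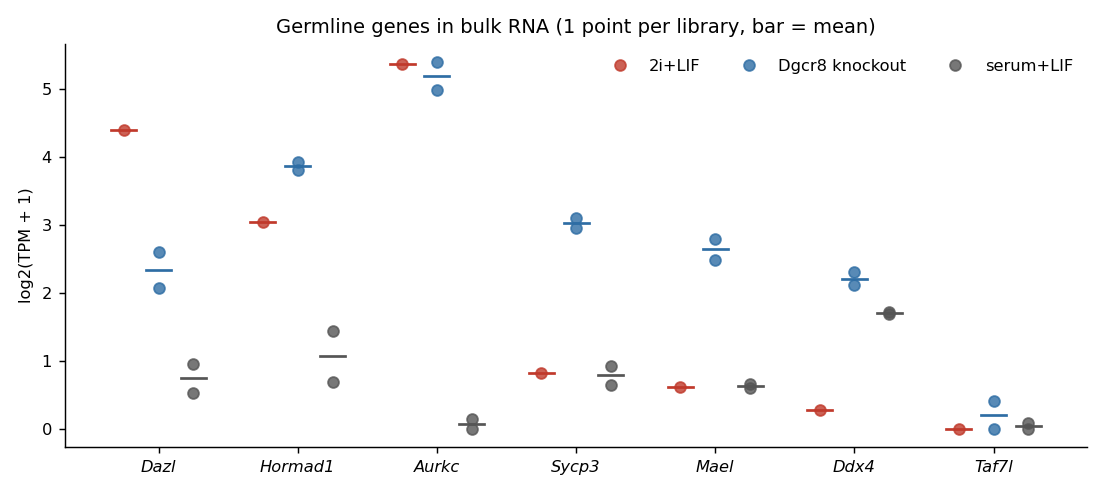
Bulk RNA level of each member, log2(TPM + 1) on the vertical axis, 1 point per library and a bar at the group mean, for 2i+LIF (n = 1), Dgcr8 knockout (n = 2) and serum+LIF (n = 2). Dazl stands highest in 2i, Sycp3 and Mael stand high in the knockout only, and Aurkc stands above 30 TPM in 2i and the knockout and near 0 in serum.

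Against serum, 3 of 6 tested members were called higher and 1 lower in 2i, and 5 of 6 were called higher in the knockout, all but Ddx4. The knockout count stands beside a background of 62.5%, so the number of rises there says little about these genes, and with the median gene as the baseline 4 were called higher and 1 lower. The median difference of these 6 was 1.002 in 2i, against 0.20 over all genes, and 2.12 in the knockout, against 0.92. Both comparisons share the serum libraries. Between 2i and the knockout, Dazl was higher in 2i by 2.05 (SE 0.35, adjusted p = 0.00037). Sycp3 (-2.21, SE 0.31), Mael (-2.02, SE 0.31) and Ddx4 (-1.93, SE 0.31) were lower in 2i than in the knockout, each with an adjusted p under 0.05 by limma (9.77e-05, 0.000151 and 0.000213). Hormad1 differed by -0.83 (SE 0.36, adjusted p = 0.0599) and Aurkc by 0.17 (SE 0.30, adjusted p = 0.643). Of all genes, 11.9% were called higher and 49.1% lower in 2i than in the knockout, with a median of -0.72, and 29.7% and 19.9% after centring. The 4 calls between 2i and the knockout held in the same direction after centring, and Aurkc was then called higher in 2i (1.04, adjusted p = 0.0095).

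In single cells the same genes differed both in how many cells carried them and in the level per carrying cell. A cell was counted as carrying a gene at 1 TPM or more, and shares are given with exact binomial 95% intervals that cover counting error only. Cells of a plate share a chip and a culture and are not replicates, so shares are described and not tested. The median cell held 9974 genes at that level in 2i and 9317.5 in the knockout, against 7780 and 7648 on the serum plates. The median of 12397 genes was carried by 89.4% of 2i and 77.4% of knockout cells, against 67.8% and 66.7% of serum cells.

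Aurkc was carried by 91 of 94 2i cells (96.8%, 91 to 99.3) and 74 of 84 knockout cells (88.1%, 79.2 to 94.1). In serum it was carried by 6 of 90 cells (6.67%, 2.49 to 13.9) and 7 of 93 cells (7.53%, 3.08 to 14.9). Aurkc was thus found in most cells of 2i and the knockout and was rare in serum. Hormad1 was carried by 97.9% (92.5 to 99.7) of 2i and 89.3% (80.6 to 95) of knockout cells, against 36.7% (26.8 to 47.5) and 40.9% (30.8 to 51.5) of serum cells. Hormad1 was thus present at 1 TPM or more in more than 1 in 3 serum cells, unlike Aurkc. At 10 TPM or more it was found in 4.44% and 7.53% of serum cells, against 89.4% of 2i and 78.6% of knockout cells.

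Dazl was carried by 88.3% (80.03 to 94.01) of 2i and 40.5% (29.9 to 51.7) of knockout cells, against 20% (12.3 to 29.8) and 18.3% (11.02 to 27.6) of serum cells. The knockout share lay between those of 2i and serum. Among cells with 8000 to 9500 genes detected it was 34% (21.2 to 48.8) in the knockout, against 23.5% (6.81 to 49.9) and 21.4% (4.66 to 50.8) in serum. Sycp3 was carried by 54.3% (43.7 to 64.6) of 2i and 82.1% (72.3 to 89.6) of knockout cells, against 42.2% (31.9 to 53.1) and 47.3% (36.9 to 57.9) of serum cells. The knockout plate had the highest Sycp3 share of the 4.

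Mael was carried by 22.3% (14.4 to 32.1) of 2i and 46.4% (35.5 to 57.6) of knockout cells, against 33.3% (23.7 to 44.1) and 41.9% (31.8 to 52.6) of serum cells. Ddx4 was carried by 35.1% (25.5 to 45.6) of 2i and 47.6% (36.6 to 58.8) of knockout cells, against 52.2% (41.4 to 62.9) and 47.3% (36.9 to 57.9) of serum cells. For both genes the 2i share at 1 TPM was the lowest of the 4 plates, although more genes were detected per 2i cell. This order depended on the cut. At 10 TPM or more, Mael was found in 13.8% of 2i cells, against 8.89% and 6.45% of serum cells. Ddx4 was found at that level in 10.6% of 2i cells, against 6.67% and 2.15% of serum cells. The knockout shares at 10 TPM were higher than those of 2i for both genes. Taf7l was listed at 0 in all 94 2i and all 84 knockout cells. Such zeros set no limit on expression in this table, since Zscan4f was also at 0 in all 84 knockout cells, with 17.9 and 11 TPM in the knockout bulk libraries. In serum Taf7l was carried by 3 of 90 cells (3.33%, 0.69 to 9.43) and 8 of 93 cells (8.60%, 3.79 to 16.2).

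**Figure D2:**
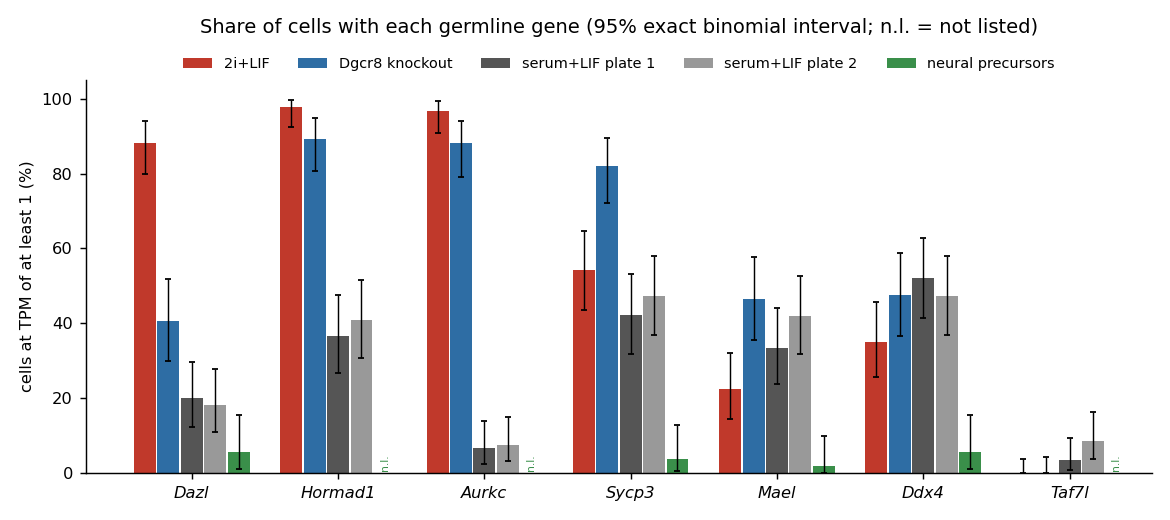
Share of cells with each member at 1 TPM or more, in percent, with exact binomial 95% intervals, for 2i+LIF, Dgcr8 knockout, both serum+LIF plates and neural precursors. Aurkc and Hormad1 reach between 88.1% and 97.9% in 2i and the knockout, Dazl 88.3% in 2i alone, Sycp3 is highest in the knockout at 82.1%, and 3 genes were not listed (n.l.) in the neural precursor table.

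Among the cells that carried a gene, its level also differed. Dazl reached a median of 26 TPM in its carrying 2i cells (quartiles 11.2 and 50, highest cell 287) and 9.77 TPM in knockout cells (4.80 and 19.8, highest 46). In carrying serum cells its median was 4.47 TPM (3.22 and 7.05, highest 27.6) on plate 1 and 2.28 TPM (1.46 and 4.26, highest 21.4) on plate 2. Dazl thus differed in both share and level, with the 2i lower quartile above both serum upper quartiles. Aurkc had a median of 69 TPM in carrying 2i cells (39 and 111) and 65.7 TPM in knockout cells (32.8 and 124), against 2.36 and 2.60 TPM in the few carrying serum cells. Hormad1 had medians of 33.05 TPM (19.5 and 51.7) in 2i and 36.4 TPM (19.5 and 60.8) in the knockout, against 3.11 and 3.89 TPM in serum. For Aurkc and Hormad1 the 2i and knockout levels per carrying cell were close to each other and their quartile ranges overlapped.

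Sycp3 had a median of 8.58 TPM in carrying 2i cells (5.42 and 14.1) and 23.2 TPM in knockout cells (upper quartile 42.9), against 4.64 and 5.34 TPM in serum. Its highest knockout cell held 203 TPM and its highest 2i cell 28.8 TPM. Mael had a median of 12.9 TPM in carrying 2i cells (4.42 and 17.4) and 15 TPM in knockout cells (upper quartile 30.8), against 4.72 and 3.16 TPM in serum. In 2i Mael was carried by fewer cells than in serum, with a higher median among them, and its plate mean of 3.33 TPM stood close to the serum means of 3.00 and 2.60 TPM. Ddx4 was low everywhere, with medians of 6.69 TPM in 2i and 8.28 TPM in the knockout, against 4.19 and 3.58 TPM in serum.

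**Figure D3:**
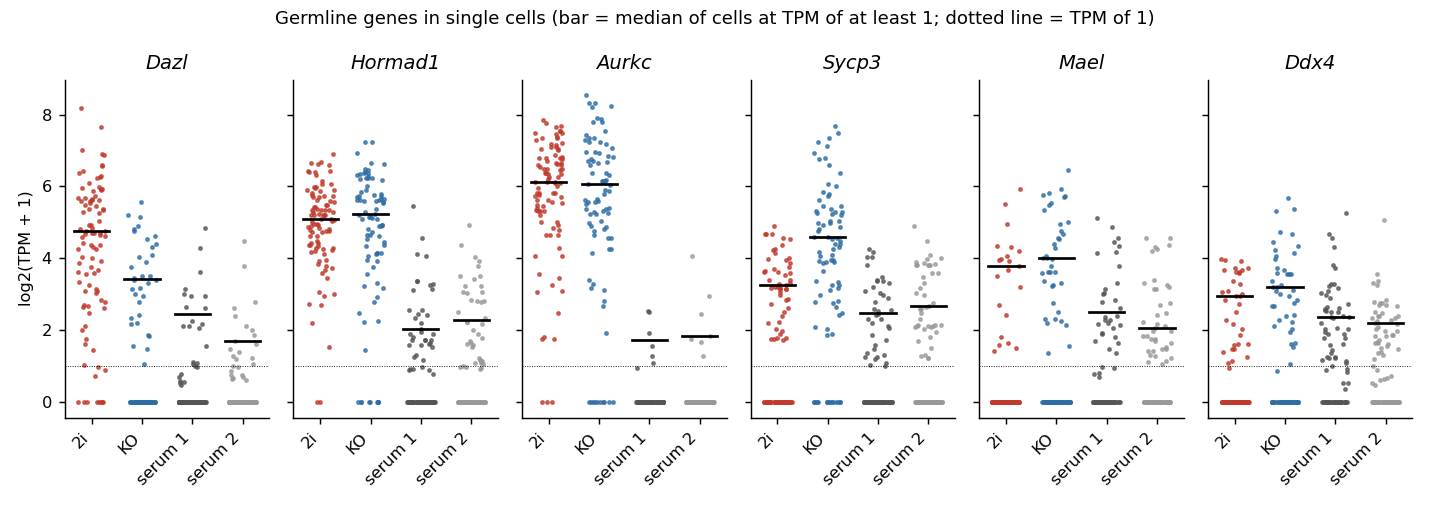
Level of 6 members in single cells, log2(TPM + 1) on the vertical axis, 1 point per cell, with a bar at the median of the cells at 1 TPM or more and a dotted line at 1 TPM. Dazl, Hormad1 and Aurkc fill the upper range in 2i, with Sycp3 in the knockout, while most serum cells lie on 0 for Dazl and Aurkc.

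Tested over plate means with limma (4 plates, 1 residual degree of freedom, 12397 genes), 3 of 6 members were called higher in 2i than in serum and 5 of 6 in the knockout than in serum. The background was 39% of genes higher and 1.82% lower in 2i, and 50% higher and 2.97% lower in the knockout, so the knockout count stands near it. The median gene was higher by 1.24 in 2i and by 1.38 in the knockout on this scale, and after centring on it the shares were 14.3% and 20.7% in 2i, and 17.6% and 28.2% in the knockout. Relative to the median gene Aurkc stood at 4.71 in 2i and 4.63 in the knockout, Hormad1 at 2.23 and 2.17, and Dazl at 2.86 and 0.25. Sycp3 stood at -0.53 in 2i and 1.64 in the knockout, Mael at -1.05 and 0.20, and Ddx4 at -1.38 and -0.54. Measured this way, Dazl and Mael in the knockout did not stand out from the median gene. Ddx4, which fell in the 2i bulk library, had plate means of 2.39 TPM in 2i, against 3.28 and 2.22 TPM in serum, a difference of -0.13 (SE 0.28, adjusted p = 0.713 by limma) that became 0.08 without serum plate 1. Among cells with 8000 to 9500 genes detected (11 in 2i, 50 in the knockout, 17 and 14 in serum), Aurkc alone was called in each comparison, while several differences stayed about as large: 4.13 for Dazl and 3.06 for Hormad1 in 2i, and 3.56 for Hormad1 and 3.33 for Sycp3 in the knockout. Dazl (0.73) and Mael (0.81) were smaller in the knockout there. In those cells Aurkc was carried by 9 of 11 2i and 43 of 50 knockout cells, against 1 of 17 and 0 of 14 serum cells.

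Cells differed in how many of the 7 genes they carried. The median was 4 in 2i and 4 in the knockout, against 2 on each serum plate, and 4 or more were carried by 64.9% of 2i and 71.4% of knockout cells, against 13.3% and 12.9% of serum cells. Dazl, Hormad1 and Aurkc were all present in 80 of 94 2i cells (85.1%) and 30 of 84 knockout cells (35.7%), against 2 of 90 and 0 of 93 serum cells. No 2i cell carried fewer than 2 members, whereas 1 knockout cell and, in serum, 10 and 8 cells carried 0.

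Within a plate the members hardly varied together. Spearman's rho over cells had a median of 0.06 over 15 pairs in 2i (range -0.14 to 0.20) and 0.04 over 15 pairs in the knockout (-0.26 to 0.25). In serum the median was 0.05 over 15 pairs (-0.18 to 0.20) on plate 1 and 0.02 over 21 pairs (-0.12 to 0.19) on plate 2. The pairs share their cells and the depth of each cell, and such weak values in sparse data are a description only. Holding the number of genes detected constant, the range of rho was -0.14 to 0.19 in 2i and -0.24 to 0.25 in the knockout. Of 15 pairs measured on all 4 plates, 3 had the same sign on all: Dazl with Ddx4 and Aurkc with Sycp3 were positive, and Aurkc with Mael was negative. In the knockout, where Dazl was carried by 34 cells and Aurkc by 74, both were carried by 32, while the shares alone give 30.0. In serum plate 1, where Dazl was carried by 18 and Ddx4 by 47 cells, both were carried by 12, while the shares alone give 9.40. The lowest value was negative, for Hormad1 with Mael in the knockout (rho = -0.26), where both were carried by 33 cells and the shares alone give 34.8. In serum plate 1 Ddx4 and Hormad1 were both carried by 14 cells, while the shares alone give 17.2.

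**Figure D4:**
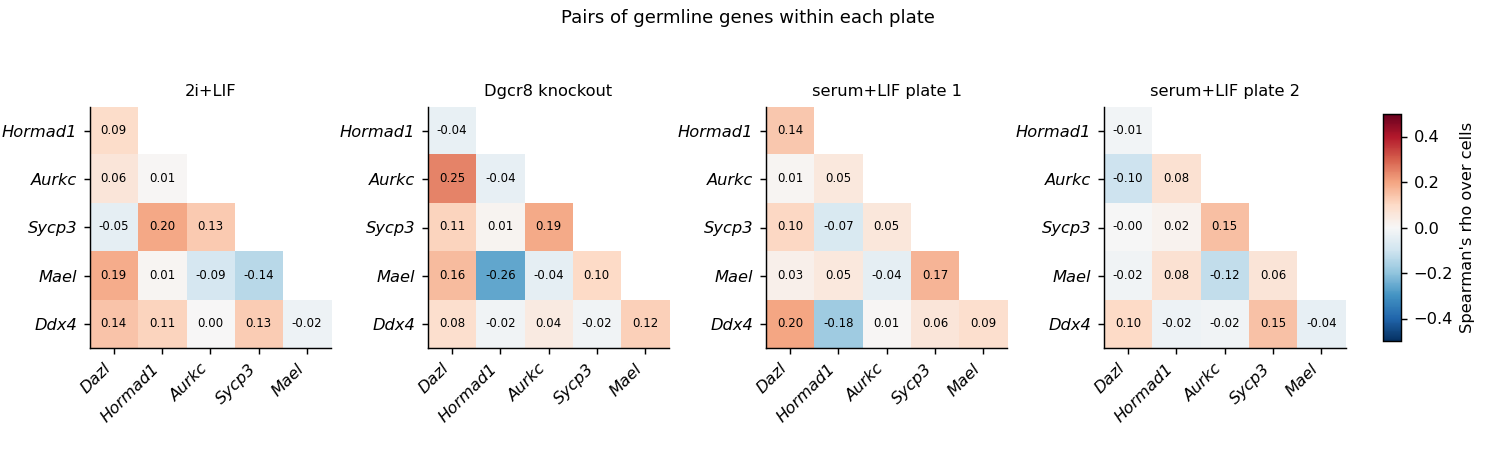
Spearman's rho over cells for each pair of 6 members, 1 panel per plate, on a colour scale from -0.5 to 0.5. Every pair lies between -0.26 and 0.25.

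Over the 94 2i cells, the genes most like each member in rank were also only moderately alike. Mael was nearest to Rhox13, a homeobox gene of the X-linked reproductive cluster (rho = 0.51, carried by 22.3% of 2i cells), but the pair stood at 0.17 in the knockout, and at 0.01 and -0.06 in serum. Dazl was nearest to Tiam1 (0.43), Nop56 (0.41) and H3f3b (0.38), Hormad1 to Tuba1a (0.41), Nup85 (0.41) and Ids (0.40), and Aurkc to Pipox (0.40), Fam60a (0.37) and Polr2i (0.36). Ddx4 was nearest to Sort1 (0.40), Dppa4 (0.38) and AK035444 (0.34), Sycp3 to Kif22 (0.36), AK135852 (0.35) and Cyp4f39 (0.35), and Mael after Rhox13 to Ccdc162 (0.38) and DQ548994 (0.37). These are the highest of 13774 genes, none of them a member, and the search over so many genes itself picks high values.

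In neural precursor cells the 4 listed members were rare. Dazl was carried by 3 of 54 cells (5.56%, 1.16 to 15.4), Ddx4 by 3, Sycp3 by 2 (3.70%, 0.45 to 12.7) and Mael by 1 (1.85%, 0.05 to 9.89). The single Mael cell held 54.9 TPM and the highest Ddx4 cell 99.8 TPM, while the highest Sycp3 cell held 2.91 TPM. In all, 46 of 54 precursor cells carried none of the 4. Some precursor cells held mESC identity markers. Summed over 8 such markers, the median cell held 17.7 TPM and the highest 3590 TPM, and Pou5f1 was carried by 16.7% and Zfp42 by 20.4% of cells. Whether the few cells with a member were among these was not tested. Hormad1, Aurkc and Taf7l were not analysed in these cells. The precursor table was normalised on its own, so its levels are not tested against those of mESCs. Its median cell held 7353 genes, near the serum plates, where Ddx4, Mael and Sycp3 were each carried by more than 1 in 4 cells. The tables list different numbers of genes, and the shares were not tested against each other.

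Chromatin was measured in 1 library per mark and culture, so differences carry counting intervals and no test. Each gene has a window of 1000 bases, in mm9 coordinates as the ChIP table gives them, and values are CPM, the counts of a window scaled to a fixed total over all 23142 windows. The Dazl window is chr17:50432424-50433424, that of Hormad1 chr3:95363098-95364098, that of Aurkc chr7:6947595-6948595 and that of Sycp3 chr10:87921831-87922831. The windows of Mael (chr1:168168375-168169375), Ddx4 (chr13:113442018-113443018) and Taf7l (chrX:131010529-131011529) complete the set. H3K4me3 marks active promoters, and H3K27ac active promoters and enhancers. H3K9me3 and H3K27me3 are marks of silent chromatin. Over all windows the median H3K4me3 was 13.2 CPM in 2i and 19.5 in the knockout, against 17.9 in serum.

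H3K4me3 at the Dazl window was 12.2 CPM in 2i (118 counts) and 7.40 in the knockout (42 counts), against 2.42 in serum (37 counts). Its log2 ratio to serum was 2.32 (95% interval 1.79 to 2.91) in 2i, above 98.6% of 18672 windows, and 1.61 (0.94 to 2.29) in the knockout, above 82.4% of 19495 windows. The Hormad1 window held 15.3 CPM in 2i (148 counts) and 22.01 in the knockout (125 counts), against 3.01 in serum (46 counts). Its ratio was 2.34 (1.86 to 2.86) in 2i and 2.86 (2.37 to 3.39) in the knockout, above 98.7% and 97.0% of windows. These genes came close to the median window in 2i, and Hormad1 in the knockout too. The input was also higher at both windows. Divided by input, the H3K4me3 ratio was 1.55 in 2i and 1.05 in the knockout at Dazl, and 1.496 and 1.87 at Hormad1.

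Aurkc held 3.31 CPM of H3K4me3 in 2i (32 counts) and 3.52 in the knockout (20 counts), against 0.850 in serum (13 counts). Its ratio was 1.93 (0.99 to 3.01) in 2i and 2.03 (0.97 to 3.18) in the knockout, yet its window stayed far under the median window in all 3 cultures, while its bulk RNA was the highest of the 7 in 2i and the knockout. Sycp3 held 4.96 CPM in 2i and 5.28 in the knockout, against 2.75 in serum, with ratios of 0.85 (0.23 to 1.49) and 0.95 (0.22 to 1.65). The 2i ratios were -0.01 (-0.42 to 0.38) for Ddx4, 0.09 (-0.44 to 0.59) for Mael and -0.63 (-1.60 to 0.21) for Taf7l, all with intervals that include 0. In the knockout Mael stood at 0.98 (0.47 to 1.48), Ddx4 at 0.65 (0.24 to 1.06) and Taf7l at 0.22 (-0.72 to 1.05). The knockout ratios of Mael, Ddx4 and Sycp3 stood above 73.5%, 68.2% and 73.01% of windows, so more than 1 in 4 windows had larger ones.

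H3K27ac was 47.1 CPM in 2i and 27.4 in the knockout at Hormad1, against 18.7 in serum, and 51.2 and 34.6 at Dazl, against 31.3 in serum. The 2i ratios were 1.33 (0.95 to 1.72) for Hormad1 and 0.71 (0.40 to 1.03) for Dazl. Divided by input, they became 0.49 for Hormad1 and -0.07 for Dazl. At Mael H3K27ac was lower in 2i, at 10.2 CPM, against 20.7 in serum (-1.02, -1.55 to -0.51). RNA polymerase II was 34.4 CPM in 2i and 14.7 in the knockout at Aurkc, against 11.2 in serum, and 24.4 and 9.20 at Dazl, against 9.21 in serum. The 2i ratios were 1.60 (0.72 to 2.57) for Aurkc and 1.39 (0.38 to 2.49) for Dazl, from at most 31 counts, or 1.97 and 0.61 divided by input. In the knockout the polymerase ratio was 1.16 (0.14 to 2.35) for Mael, above 92.6% of windows, and 0.69 (0.08 to 1.34) for Hormad1, or 1.31 and -0.30 divided by input.

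Marks of silent chromatin were high at most members in serum, and mostly in 2i and the knockout too. In serum, H3K9me3 at 6 of 7 windows lay between the 94.3 and the 99.9 percentile of all windows. Dazl was highest there at 238 CPM, and Aurkc lay at the 61.6 percentile. The same 6 windows lay between the 89.01 and the 99.85 percentile in 2i, and between the 76.7 and the 99.7 percentile in the knockout. Aurkc lay at the 63.9 percentile in 2i and the 97.1 percentile in the knockout. At Dazl H3K9me3 was 141 CPM in 2i and 146 in the knockout, with ratios to serum of -0.75 (-1.24 to -0.28) and -0.69 (-1.21 to -0.20), and the window still stood at the 99.6 and 99.7 percentile. At Ddx4 it was 202 CPM in 2i and 127 in the knockout, against 135 in serum (0.58, 0.08 to 1.10 in 2i). At Taf7l it was 65.8 CPM in 2i and 65.1 in the knockout, against 120 in serum, with ratios of -0.86 (-1.58 to -0.18) and -0.87 (-1.65 to -0.15). At Hormad1 it was 88.5 CPM in 2i and 54.2 in the knockout, against 95.6 in serum, and at Aurkc 45.4 and 86.8, against 44.1 in serum (knockout ratio 0.96, 0.10 to 1.90). The H3K9me3 ratios at Mael were 0.301 (-0.185 to 0.798) in 2i and -0.503 (-1.119 to 0.084) in the knockout. At Sycp3 they were 0.215 (-0.498 to 0.949) in 2i and 0.099 (-0.676 to 0.8703) in the knockout. These intervals for Mael and Sycp3 all include 0. H3K27me3 also lay high at 6 of 7 windows in serum, between the 84.7 and the 94.7 percentile, with Aurkc at the 35.7 percentile. Those 6 windows lay between the 89.7 and the 98.3 percentile in 2i, and between the 71.6 and the 92.7 percentile in the knockout. At Sycp3 H3K27me3 was 142 CPM in 2i and 46.8 in the knockout, against 65.1 in serum, with ratios of 1.12 (0.59 to 1.66) and -0.46 (-1.20 to 0.22). At Mael it was 97.0 CPM in 2i and 64.2 in the knockout, against 118 in serum, with ratios of -0.28 (-0.81 to 0.23) and -0.87 (-1.47 to -0.32). Sycp3 and Mael, whose bulk RNA rose in the knockout, held their lowest H3K27me3 there, although the Sycp3 interval includes 0. So did Ddx4, whose bulk RNA was not called in the knockout, with 159 CPM in 2i and 104 in the knockout, against 154 in serum (knockout ratio -0.56, -1.03 to -0.11). Hormad1, whose RNA was also higher in 2i, held 122 CPM in 2i and 86.7 in the knockout, against 98.3 in serum (knockout ratio -0.18, -0.72 to 0.35). Dazl in CPM went the other way, with 116 in 2i and 97.1 in the knockout, against 81.1 in serum, where its RNA was lowest (2i ratio 0.52, -0.01 to 1.05). Divided by the input of the same culture, this order turned, with Dazl at 2.16 in 2i and 2.09 in the knockout, against 2.58 in serum. Hormad1 divided by input stood at 1.80 in 2i and 1.15 in the knockout, also against 2.58 in serum. At Aurkc H3K27me3 was 44.6 CPM in 2i and 62.4 in the knockout, against 19.7 in serum, with ratios of 1.17 (0.20 to 2.20) and 1.64 (0.78 to 2.62). At Aurkc, H3K27me3 was therefore lowest in serum, where its RNA was lowest too. H3K36me3, a mark of transcribed gene bodies, rested on 6 to 47 counts per member window. Mael (0.86, 0.03 to 1.78) and Aurkc (-0.996, -1.85 to -0.21) had 2i ratios whose intervals exclude 0.

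**Figure D5:**
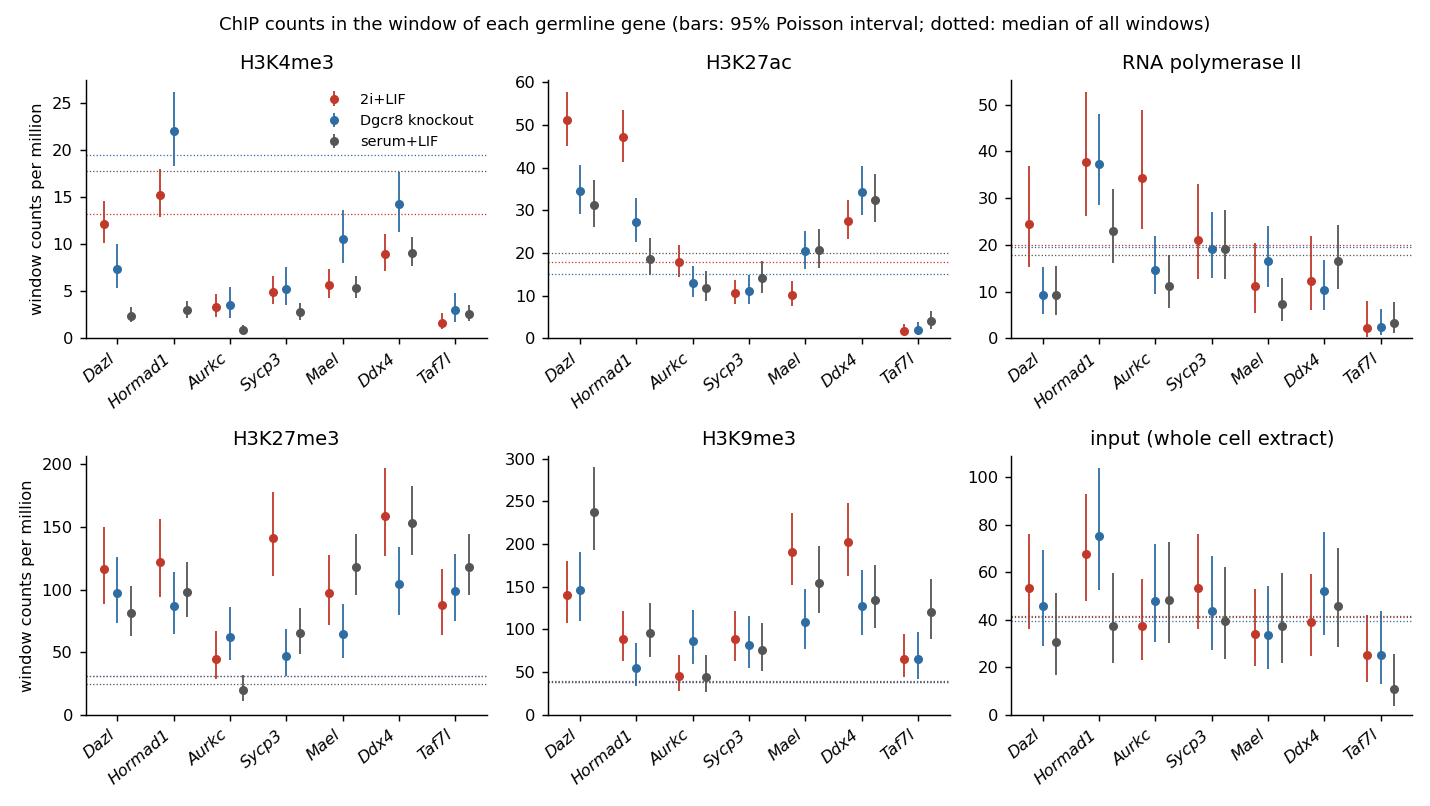
Window values in CPM for 5 ChIP targets and the input at each member, with 95% Poisson intervals and a dotted line at the median of all windows, for 2i+LIF, Dgcr8 knockout and serum+LIF (1 library each). H3K4me3 at Dazl and Hormad1 stands above serum in 2i and the knockout, and H3K9me3 at Dazl stands highest in serum.

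Other germline genes come from lists written by function, with earlier results of these data known. Their counts are to be read against 20.4% of genes higher in 2i and 62.5% higher in the knockout. Among genes of piRNA and transposon control, 3 of 9 tested were called higher in 2i (list median 0.15), led by Rnf17 (122.8 TPM in 2i, against 5.02 and 5.71 TPM in serum; 4.28, SE 0.25), a Tudor protein. Fkbp6, a co-chaperone (4.02, SE 0.31), and Tdrd12, a Tudor domain protein (2.25, SE 0.22), followed. In the knockout 8 of 9 were called higher and 1 lower, or 2 and 2 after centring, and the fall was in Tex19.1 (18.8 and 13.9 TPM in the knockout, against 87.7 and 72.4 TPM in serum). The highest there were Pld6, a piRNA enzyme of mitochondria (2.19), Rnf17 (1.91), Mov10l1, a piRNA helicase (1.38), and Fkbp6 (1.38).

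Among genes of the meiotic axis and recombination, 2 of 7 tested were called higher in 2i, Hormad2 (2.45, SE 0.30) and Rec8 (0.97, SE 0.32), the second lost after centring. In the knockout 5 of 7 were called higher, 3 after centring with 1 lower. Those with the largest differences were the cohesin subunits Rec8 (3.03, SE 0.26), Smc1b (3.00, SE 0.25) and Stag3 (1.82, SE 0.27), with the recombinase Dmc1 (1.45, SE 0.29). Smc1b had 0.619 TPM in 2i and 6.40 and 7.93 TPM in the knockout, against 0.0265 and 0 TPM in serum, an order close to that of Sycp3. Of other germ cell genes, 4 of 10 were called higher and 2 lower in 2i, and 7 higher and 1 lower in the knockout (4 and 2 after centring). Sohlh2, a transcription factor of spermatogonia and oocytes, rose by 1.57 (SE 0.31) in 2i and by 4.21 (SE 0.25) in the knockout. Tex11 rose by 1.24 (SE 0.32) in 2i and by 1.92 (SE 0.26) in the knockout, where Dpep3 (2.06) and Tex14 (1.82) also rose. Tex15 fell in 2i (-1.30, SE 0.29). Tuba3b (3.9999 in 2i), Tuba3a (-0.54 in 2i and -1.37 in the knockout) and Rpl10l (1.29 in 2i) have near copies elsewhere, and 25-base reads may be split among them.

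Of 24 tested genes of the silencing machinery, 2 were called higher and 7 lower in 2i, beside 20.4% and 11.8% of all genes. In the knockout 12 were called higher and 4 lower (3 and 11 after centring), beside 62.5% and 11.7%. The list's median difference was 0.12 in 2i and 0.63 in the knockout, against 0.20 and 0.92 over all genes, so only single genes are described. Dnmt3l had 0.832 TPM in 2i and 19.7 and 20.7 TPM in the knockout, against 196.9 and 159.4 TPM in serum, a fall of 6.60 in 2i (-6.60, SE 0.24, adjusted p = 3.60e-09) and of 3.07 in the knockout (-3.07, SE 0.20, adjusted p = 9.26e-08). Dnmt3b had 2.72 TPM in 2i and 6.23 and 4.29 TPM in the knockout, against 27.3 and 20.2 TPM in serum, with differences of -2.72 (SE 0.32) and -1.99 (SE 0.26). The other writer, Dnmt3a, had 0.582 TPM in 2i and 6.08 and 5.78 TPM in the knockout, against 4.69 and 3.56 TPM in serum, a fall in 2i (-1.69, SE 0.32, adjusted p = 0.00166) and no call in the knockout (0.44, SE 0.26, adjusted p = 0.139) by limma. The maintenance enzyme Dnmt1 had 15.5 TPM in 2i and 83.5 and 72.7 TPM in the knockout, against 30.7 and 31.7 TPM in serum. It fell in 2i (-0.96, SE 0.22, adjusted p = 0.00611) and rose in the knockout (1.29, SE 0.18, adjusted p = 4.83e-05) by limma. In single cells, though, the mean of Dnmt1 was 37.7 TPM in 2i and 43.3 TPM in the knockout, against 10.7 and 6.77 TPM in serum. Uhrf1 was not called in bulk (0.24 in 2i, -0.21 in the knockout). Also lower were Tfdp1, a partner of E2F factors, in 2i (-2.20, SE 0.27), and Trim28, a co-repressor, in the knockout (-1.23, SE 0.24). Cbx3 (1.93) and Wdr5 (1.27) were higher in 2i. Wdr5 (1.79), Mga (1.77), Kdm1a (1.77) and Smchd1 (1.55) were the largest rises in the knockout, each by under 1 relative to the median gene. In single cells Dnmt3l was carried by 18 of 94 2i cells and 70.2% of knockout cells, against 96.7% and 98.9% of serum cells. A list on oxidation of the methyl mark had 4 tested genes, among them Prdm14, which is not an enzyme of that step. Of these 4, 2 were higher and 1 lower in 2i, and 3 higher and 1 lower in the knockout (1 and 1 after centring). Prdm14, which represses the Dnmt3 genes in mESCs, rose by 2.05 (SE 0.34) in 2i and 2.97 (SE 0.27) in the knockout, Tet2 by 1.39 and 1.37, and Tet1 by 1.33 in the knockout. Tdg was lower by -1.40 in 2i and -1.02 in the knockout.

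Dgcr8 had 4.66 TPM in 2i and 4.03 and 2.20 TPM in the knockout, against 10.6 and 10.3 TPM in serum. The knockout was lower than serum (-1.51, SE 0.28, adjusted p = 0.000358 by limma), but 2i did not differ from the knockout by this test (0.50, SE 0.34, adjusted p = 0.22), so the gene does not tell the knockout from every wild-type culture. In cells its mean was 16 TPM in the knockout, with 79 of 84 cells at 1 TPM or more, against 72.5 and 27 TPM on the serum plates. The part deleted is not given in the labels, so the remaining reads cannot check the genotype. Of 8 mESC identity markers all were listed, with a summed level of 2775 TPM in 2i and 5152.2 and 5152.2 TPM in the knockout, against 2133 and 2067 TPM in serum. Of 10 primordial germ cell markers, which include Dazl and Ddx4, 9 were listed, summing to 494 TPM in 2i and 171 and 186 TPM in the knockout, against 125 and 111 TPM in serum. Most of each sum came from Dppa3, with 438 TPM in 2i and 120 and 139 TPM in the knockout, against 116 and 104 TPM in serum. Dppa3 was carried by 94.4% and 96.8% of serum cells too. In 2i 4 of 7 tested were called higher and 1 lower, beside 20.4% and 11.8% of all genes. The higher ones were Kit (2.99), Dppa3 (1.98), Dazl and Prdm14, and the lower one was Ddx4. In the knockout 5 of 7 were called higher, led by Prdm14, Dnd1 (2.68) and Prdm1 (2.68), beside 62.5% of all genes. After centring 3 were called higher there and 2 lower. Markers of 2-cell-like mESCs summed to 0.167 TPM in 2i and 56.2 and 47.2 TPM in the knockout, against 1.42 and 0.488 TPM in serum. Trophoblast markers summed to 6.96 TPM in 2i and 12.1 and 9.04 TPM in the knockout, against 138 and 159 TPM in serum, where Krt7 and Plac1 carried most of it. Neural precursor markers summed to 21.4 TPM in 2i and 94.0 and 87.5 TPM in the knockout, against 4.38 and 4.25 TPM in serum, nearly all of it in the knockout from Sox2 (74.2 and 65.9 TPM), which is also an mESC marker, and Vim (18.2 and 19.7 TPM), with Nes, Sox1 and Pax6 under 1 TPM in every library. Fibroblast markers summed to 92.2, 54.9, 48.6, 48.9 and 62.8 TPM in the same order of libraries, nearly all from Fn1. Primitive endoderm markers summed to 481, 459, 500.2, 147 and 178 TPM, nearly all from Sparc. The part of these cell types in the members' levels was not tested, and in bulk fewer carrying cells and less RNA per cell cannot be told apart.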

How the data were processed

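The members and gene lists were chosen with earlier results of these data known. Deposited RNA values were on a natural log scale, and taking the exponential minus 1 gave TPM. Bowtie, RSEM and build mm9 are listed, per the submitters' processing notes, with no version or further step. Libraries were made with SMART-Seq on C1 chips and read as 25-base pairs, per the labels' protocols. TPM keeps no trace of depth, so genes detected are given instead. The deposited ChIP table holds raw counts in 1000-base windows, summing to between 332811 and 15293599 per library. Among 1545 pairs of divergent neighbouring genes, window centres and RefSeq starts lay about equally far apart (median difference -1 base, 70.0% within 50 bases), as for windows centred on the start. Names turned into spreadsheet dates were left out (51 mESC, 25 precursor and 25 ChIP rows), and all sample columns were used.

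Log2(TPM + 1) was fitted with limma 3.58.1 (trend; R 4.3.3) over 5 bulk libraries (2 residual degrees of freedom) or 4 plate means, keeping genes with a mean of at least 1 TPM. A group of 1 library or plate is assumed to vary like the others. ChIP log2 ratios used 0.5 added to counts, with intervals conditional on the sum of both counts, and were set beside windows with at least 20 counts in both libraries together. Doublets were not called, and no cell was left out. Beside the members, the text names, per list and bulk comparison with serum, up to 4 genes called higher and 3 lower with the largest differences, and for each member carried by at least 20% of 2i cells, the 3 genes nearest in rank among those carried by at least 10%. Alternatives covered pseudocounts, filters, scaling, depth-matched cells, input and leaving out libraries.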

Additional observations from a re-analysis of the deposited data

How the results depend on the processing

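Over the alternatives run, Aurkc and Hormad1 stayed higher in 2i and the knockout than in serum in bulk, except that Hormad1 in 2i missed the threshold without a filter (adjusted p = 0.0734 by limma). In bulk, requiring a mean of at least 5 TPM left fewer members to test, and 3 rather than 5 were called in the knockout and 1 rather than 4 between 2i and the knockout. Centring on the median gene raised the count called over plates in 2i to 5, by adding Ddx4 and Mael as lower, where 3 were called before. A pseudocount of 0.1 lowered the count over plates in the knockout to 3, where 5 were called before, and the cause was not tested. Cells with 8000 to 9500 genes left 1 call in 2i and 1 in the knockout, with fewer cells, although Dazl (4.13) and Hormad1 (3.06) in 2i and Hormad1 (3.56) and Sycp3 (3.33) in the knockout differed about as much as over all cells. Apart from centring, the shares of all genes called under these settings are not given, so the counts alone say little about the members.

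Some directions turned. Against serum in 2i, Sycp3 was -0.22 after centring and -0.19 after quantile normalisation in bulk, and over plates -0.60 after centring. Leaving out single libraries gave -0.10 to 0.17 for Sycp3 and -0.045 to 0.019 for Mael in 2i, and -0.031 to 0.372 for Aurkc between 2i and the knockout. Mael over plates in 2i was -0.23 as a mean of logs and -1.12 after centring. Ddx4 in the knockout was -0.61 after centring and -0.57 after quantile normalisation in bulk, and -0.71 after centring and -0.12 in the depth-matched cells over plates. Hormad1 between 2i and the knockout was 0.039 after centring and 0.010 after quantile normalisation. With cells counted at 10 TPM rather than 1 TPM, the 2i shares of Mael and Ddx4 turned from below both serum plates to above both. Centring takes the median gene's difference off every value, and the cause of the other turns was not tested.

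For ChIP, dividing by input gave summed log2 ratios over the 7 windows of 0.69 in 2i and 0.97 in the knockout for H3K4me3, 0.011 and -0.27 for H3K27ac, and -0.077 and -0.59 for H3K27me3. Scaling to the median window gave 0.31 for H3K27ac in the knockout, and for H3K27me3 0.023 in 2i and -0.43 in the knockout. Divided by input, H3K27ac was -0.066 at Dazl in 2i and -0.45 at Hormad1 in the knockout, and polymerase was -0.30 at Hormad1 in the knockout. Input counts per member window were at most 38, which limits these ratios.

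The bulk replicate numbers are shared by only 2 pairs with no stated batch, so the block is an alternative. With the replicate block 4 members were called in 2i, 5 in the knockout and 5 between 2i and the knockout, the added one being Hormad1 (-0.83, adjusted p = 0.0301 by limma). That difference is close to the median gene's -0.72 in the main fit. Shares of all genes called are not given for the block or for leaving out libraries. In the main fit they were already 62.5% higher in the knockout than in serum, and 49.1% lower in 2i than in the knockout. Leaving out each library gave 4, 5, and 4 to 5 calls.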

Other observations

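E-box matches were also more frequent in promoters of the other germline lists than over all promoters (7.24%), as a count of letters with no test. CACGTG stood in 5 of 15 matched promoters of piRNA and transposon control genes (33.3%), 4 of 19 of meiotic axis and recombination genes (21.1%) and 6 of 24 of other germ cell genes (25.0%). It stood in 0 of 8 mESC identity marker promoters and 0 of 7 neural precursor marker promoters, but also in 3 of 24 silencer promoters (12.5%) and 1 of 4 of methyl oxidation genes. The E2F core stood in 5410 of all 27025 promoters, and in 2 of 15, 10 of 19 and 8 of 24 of the 3 germline lists. Median CpG counts were 18, 16 and 14 in these lists, against 7 over all promoters. The E2F core and CpG counts were not particular to germline lists: the core stood in 13 of 24 silencer and 3 of 7 neural precursor marker promoters, and the median CpG count was 29 and 18 there.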
